A study of Mus musculus with 4 samples.

Results

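Broad unmethylated valleys are stretches of DNA, several kilobases long, in which neighbouring CpG cytosines carry almost no methylation. In vertebrates most CpGs outside CpG islands are methylated, and the common exception is a short CpG island at a gene start. Wide unmethylated stretches are known from many tissues, where they often lie over genes of developmental regulators, including genes that are silent in the tissue and bound by Polycomb complexes. They are of interest in the liver because a silent developmental gene there can have an unmethylated promoter, so low methylation does not by itself mean that a gene is expressed.

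The regions were chosen by a rule on the measured methylation, so their low level is how they were selected and not a result. On the 19 autosomes, CpG cytosines that reached 10 reads in each of the 4 mice were sorted by position. A run was a series of consecutive cytosines that each had a mean methylation over the 4 mice below 20%, the bound for a hypomethylated site, with neighbours at most 1 kb apart. Runs whose first and last cytosine lay 4 kb or more apart were called valleys, and 38 of 33357 runs met this. They held 6346 of the 1253673 common autosomal cytosines, or 0.506%. A set of 3601 shorter runs, of 1 kb up to 4 kb, was used for comparison.

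The livers of 4 male mice on a normal diet, aged 6 to 8 weeks, were measured by enhanced reduced representation bisulfite sequencing (ERRBS), which reads bisulfite-converted DNA mainly in CpG-rich parts of the genome and does not distinguish methylcytosine from hydroxymethylcytosine. Mixed-1 and Mixed-2 had an undefined mixed background that includes C57BL/6J, and B6-1 and B6-2 were C57BL/6, so n = 2 mice a strain. Wherever 4 values are given for a place, they stand for Mixed-1, Mixed-2 and then B6-1, B6-2. The Mixed mice were housed at another institution than the B6 mice and their libraries were shallower (mean coverage of 44.2 and 49.0 reads a site against 63.7 and 60.1), so strain, housing and depth cannot be told apart. Whole liver holds hepatocytes and other cells, and a methylation level is an average over all of them. Of 10 hepatocyte marker genes, only 2 (Fgb and Hnf4a) had 3 or more common cytosines within 1 kb of their start, with mean levels of 28.7 to 30%, and no marker of hepatocytes or of other liver and blood cells started in a valley. The tissue label could therefore not be checked further from these sites.

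The sequence in these regions is what the assay reads, and 4 promoters show it. The 250 bases before the RefSeq start of 4 genes follow, 5′ to 3′ on the strand of the gene, with every CpG in capitals. They were chosen because they hold at least 20 common cytosines and no exon of a coding transcript. They are Msx1 (chr5:37824586-37824835, minus strand), a homeobox factor of skull and tooth development, Runx1 (chr16:92697330-92697579, minus strand), a factor of blood cell formation, Foxo3 (chr10:42276696-42276945, minus strand), a forkhead factor of stress and metabolic signalling, and Bhlhe41 (chr6:145865421-145865670, minus strand), a basic helix-loop-helix repressor tied to the circadian clock, all in GRCm38.p6 (mm10) from RefSeq.
Msx1: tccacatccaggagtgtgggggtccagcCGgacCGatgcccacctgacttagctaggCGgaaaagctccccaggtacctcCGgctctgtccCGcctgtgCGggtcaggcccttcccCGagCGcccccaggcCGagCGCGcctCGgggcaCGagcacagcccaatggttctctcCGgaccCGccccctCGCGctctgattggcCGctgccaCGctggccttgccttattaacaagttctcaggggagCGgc
Runx1: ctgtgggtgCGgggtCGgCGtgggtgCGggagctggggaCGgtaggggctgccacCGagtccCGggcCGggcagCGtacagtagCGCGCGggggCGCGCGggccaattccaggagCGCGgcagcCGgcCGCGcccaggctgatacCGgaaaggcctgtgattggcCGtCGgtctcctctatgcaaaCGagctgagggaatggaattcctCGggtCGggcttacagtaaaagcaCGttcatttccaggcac
Foxo3: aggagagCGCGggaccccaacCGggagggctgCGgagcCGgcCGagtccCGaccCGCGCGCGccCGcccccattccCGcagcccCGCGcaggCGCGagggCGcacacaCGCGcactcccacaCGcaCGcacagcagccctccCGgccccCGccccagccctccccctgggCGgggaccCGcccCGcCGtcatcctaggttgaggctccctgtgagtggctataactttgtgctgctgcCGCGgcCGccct
Bhlhe41: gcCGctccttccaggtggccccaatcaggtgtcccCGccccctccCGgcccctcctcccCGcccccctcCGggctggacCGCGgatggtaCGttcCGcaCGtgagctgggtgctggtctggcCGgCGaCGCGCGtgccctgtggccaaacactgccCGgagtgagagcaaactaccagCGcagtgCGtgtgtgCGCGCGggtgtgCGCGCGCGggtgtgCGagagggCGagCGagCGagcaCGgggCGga
The Msx1 window has 20 CpGs, and its 24 common cytosines averaged 0.383, 0.356, 0.608 and 0.372% in the 4 mice. The Runx1 window has 27 CpGs and 30 common cytosines, at 0.0469, 0.139, 0.171 and 0.117% in the same order. The Foxo3 window has 31 CpGs and 25 common cytosines, at 0, 0.211, 0.0494 and 0%. The Bhlhe41 window has 31 CpGs and 27 common cytosines, at 0.295, 0, 0.151 and 0.155%. Every one of these values lay below 1%, and the cytosines of a CpG are counted on both strands.

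These windows were dense in CpGs for promoters, which their choice by at least 20 common cytosines partly fixed. Of 32851 RefSeq promoter windows of this length, 17.9% had at least as many CpGs as Msx1, 8.56% as many as Runx1 and 5.19% at least as many as Foxo3 or Bhlhe41. Other valley genes had fewer, with 7 CpGs each at Pcdh7, Adm and Foxb2, a number that 46.3% of promoters reached. The letters CCGG, the site of the enzyme MspI that this kind of library is usually cut with, read the same on both strands and stood in 47.1% of all windows. ERRBS can also use the enzyme TaqαI, whose site was not counted here. Of the 53 genes with a start in a valley, 37 had a promoter window, and 37 of their 47 windows (78.7%) held the letters. Some genes had several windows, and whether each of these lay in a valley was not checked. The median window had 17 CpGs at these genes and 6 over all promoters. A valley needs read cytosines, while the promoter windows were taken whether read or not. The CCGG and CpG differences are partly set by that. The windows of Fgf9, Tle3, Sall1, Evx1, Pcdh7, Adm and Foxb2 had no common cytosine, and the letters CCGG were not in them. For those genes the values come from other parts of the valley.

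The widest valley spanned 6763 bp at Msx1 (chr5:37822812-37829575) and the narrowest 4011 bp at Bhlhe41 (chr6:145862814-145866825). The median span was 4471 bp, and 9 valleys reached 5 kb. Together they covered 177 kb on 14 chromosomes, with 5 valleys each on chromosomes 5 and 11 and 4 on chromosome 8. Msx1 was followed by Fgf9 (6178 bp, chr14:58070614-58076792), a fibroblast growth factor of lung and gonad development, Tle3 (5832 bp, chr9:61368527-61374359), a Groucho-family corepressor, Sall1 (5765 bp, chr8:89040759-89046524), a zinc finger factor of kidney development, and Zbtb7a (5661 bp, chr10:81134371-81140032), a BTB zinc finger repressor. Since a run may bridge 1 kb without a cytosine, the span depends on where cytosines were read. Without Mixed-2 the valley at Msx1 measured 4680 bp and that at Fgf9 was the widest, and with every mouse below 20% or at least 20 reads Msx1 fell short of 4 kb, at 2970 and 2964 bp. Without B6-2 the run at Bhlhe41 measured 2284 bp and was no valley.

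**Figure D1:**
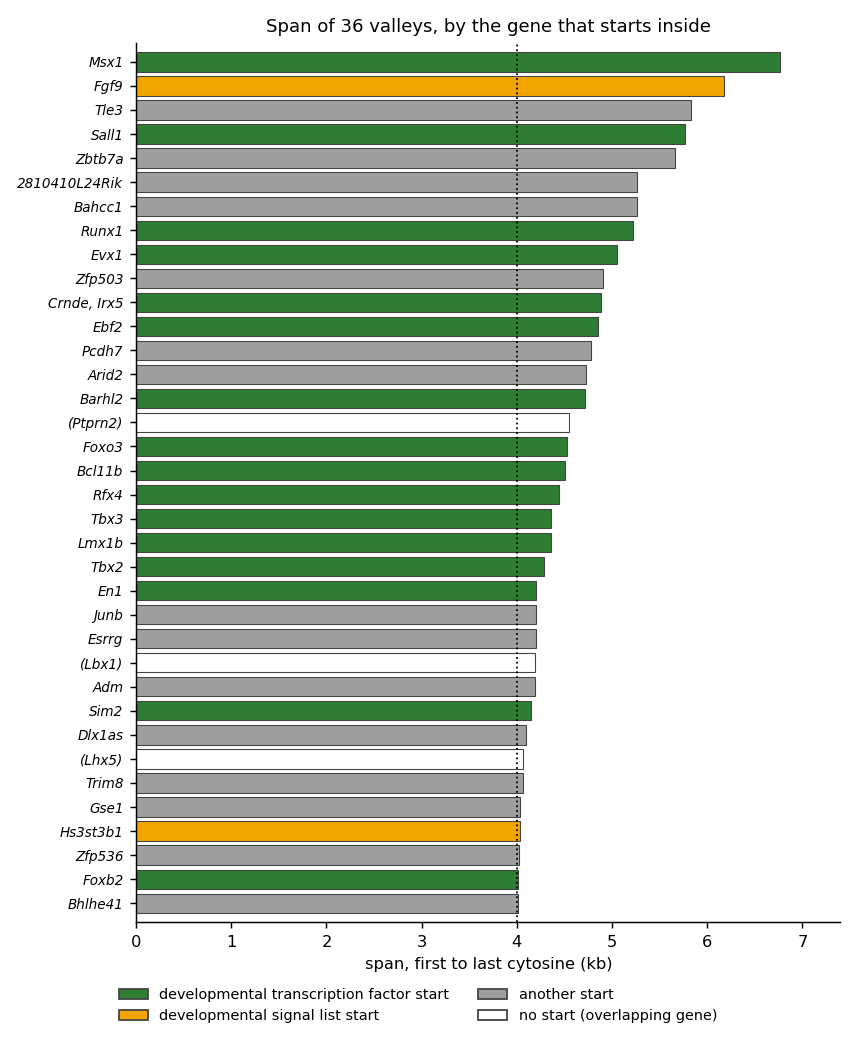
Span of 36 of the 38 valleys in kb, from the first to the last cytosine, as horizontal bars from 0 with the 4 kb threshold as a dotted line. Bar colour gives the kind of gene that starts inside. Spans run from 4011 to 6763 bp, and 16 of the 36 bars are those of developmental transcription factor starts.

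The choice of 4 kb fell within a continuous range of spans. The valleys just above it were Bhlhe41 (4011 bp), the forkhead gene Foxb2 (4015 bp), the zinc finger gene Zfp536 (4023 bp) and Hs3st3b1 (4031 bp), an enzyme that adds sulfate to heparan sulfate chains. Their mean methylation over the mice was 0.956, 1.45, 1.06 and 0.840%. The runs just below it lay at the zinc finger gene Zfp423 (3980 bp), Anp32a (3970 bp), Smad7 (3950 bp), an inhibitor of TGF-beta signals, and Tcf7l2 (3941 bp), a factor of Wnt signalling. Theirs was 0.633, 0.147, 0.118 and 0.309%.

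Valleys lay mostly over gene starts. In 35 of 38 valleys (92.1%) at least 1 RefSeq transcript started, against 85.6% of the shorter runs, and 17 valleys held the starts of 2 or more genes. The 53 genes were 34 annotated as protein coding, 18 long noncoding RNAs and 1 antisense RNA, and they were 0.280% of the 18921 autosomal genes with a common cytosine within 1 kb of a start. The 3 valleys without a start lay in Ptprn2, which encodes a phosphatase-like protein of secretory vesicles, and over the homeobox genes Lbx1 and Lhx5. The valley at Lmx1b, a LIM homeobox factor that sets dorsal identity in the limb, held the most starts, those of Lmx1b, C130021I20Rik and Gm39790.

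Developmental transcription factors were the largest group among the genes on the lists. A member of the 5 lists of such factors started in 18 of 38 valleys (47.4%, exact 95% interval 31 to 64.2%), against 252 of 3601 shorter runs (7.0%). The share was larger in each wider class of run: 3.22% of the 2172 runs of 1 to 1.5 kb, 6.59% of 850, 19% of 310, 22.1% of 145, 22.6% of 84, 40.0% of the 40 runs of 3.5 to 4 kb, and 47.4% in the valleys. This is a description of runs sorted by span, with no test, and a wider run has more room for a start. The share among valleys was smaller under stricter bounds, at 4 of 14 (28.6%) with a bound of 10% and 6 of 19 (31.6%) with every mouse below 20%.

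Homeobox factors outside the Hox clusters gave 6 genes, Msx1, Evx1, Irx5, Barhl2, Lmx1b and En1, or 4.32% of the 139 members with a common cytosine at a start, beside 0.280% of all genes. Evx1 (5052 bp, chr6:52312746-52317798) patterns the posterior embryo and spinal interneurons, Irx5 (4879 bp) is an Iroquois factor of heart and retina, and Barhl2 and En1 act in the nervous system. The T-box, forkhead, Sox and Gata list gave Tbx2, Tbx3, Foxo3 and Foxb2, or 5.13% of 78. The list of zinc finger and other factors gave 7 genes, or 5.47% of 128, among them Sall1, Runx1, Ebf2, Bcl11b and Rfx4. The list of basic helix-loop-helix factors gave Sim2 alone, or 1.67% of 60. No gene of the Hox clusters started in a valley, which at 0 of 38 genes allows a share of up to 7.89%, while 21 of them (55.3%) started in shorter runs. So did 59.7% of the other homeobox genes and 56.4% of the T-box, forkhead, Sox and Gata list. The zinc finger and other list gave 56.2% there and the basic helix-loop-helix list 41.7%, beside 20.4% of all genes. The excess over all genes was thus not particular to valleys.

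The list of developmental signals and receptors gave Fgf9 and Hs3st3b1, or 1.13% of 177 genes, and Hs3st3b1 is an enzyme. In shorter runs 45.2% of that list started. The remaining 15 valleys with a start held neither kind of gene. Among them, 6 held Bhlhe41, Esrrg, Junb, Zbtb7a, Zfp503 or Zfp536, which encode transcription regulators that the lists lack and that were picked out after their positions were seen. Counting them, 24 of 38 valleys (63.2%) held the start of a listed developmental factor or of one of these 6 genes. Picked this way, they could only raise the share, and unlisted regulators were not counted in shorter runs or over all genes. The 63.2% therefore has no background to be read against. The others were Tle3, the chromatin genes Arid2, a subunit of a SWI/SNF complex, and Bahcc1, the protocadherin gene Pcdh7, Adm, which encodes the peptide hormone adrenomedullin, Trim8, Gse1, and the noncoding 2810410L24Rik and Dlx1as.

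No valley held the start of a housekeeping or histone gene. None of the 977 housekeeping genes with a common cytosine at a start was in a valley, which allows a share of up to 0.307%, so at this number the list could not be told from the 0.280% of all genes. In shorter runs 205 of them started (21.0%, beside 20.4% of all genes). By width, 7.04% of runs of 1 to 1.5 kb, 5.29% of those up to 2 kb, 2.58% of those up to 2.5 kb, 1.38% of those up to 3 kb and 0 of the 162 runs of 3 kb or more held such a start, and the last allows up to 1.85%. No gene of the hepatocyte list started in a valley either, at 0 of 54 genes and a limit of 5.56%, while 24.1% of them started in shorter runs. For the 40 histone genes and the 10 markers of other liver and blood cells the count was also 0, with limits of 7.5 and 30%. All these limits cover counting error only.

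**Figure D2:**
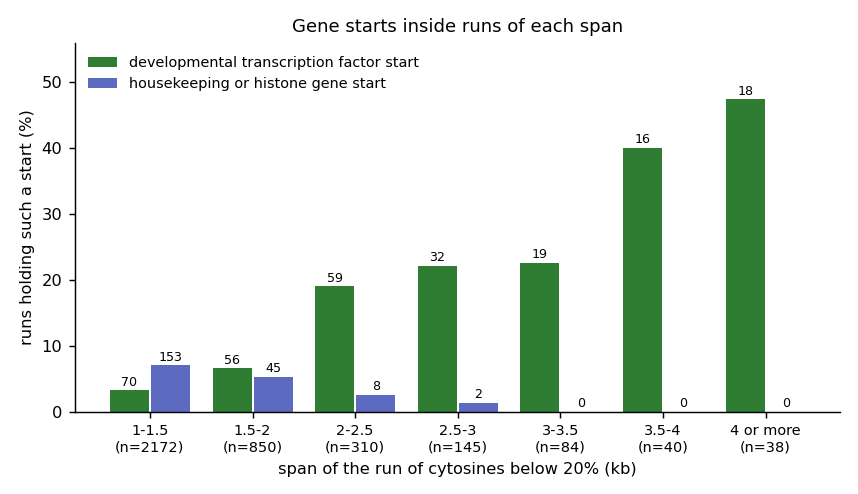
Percent of runs of each span class (kb) that hold the start of a developmental transcription factor (green) or of a housekeeping or histone gene (blue), with the number of such runs above each bar and the number of runs in the class below the axis. The green bars go from 3.22% to 47.4% and the blue bars from 7.04% to 0.

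The valley could hold a whole gene or only its first part. Of 33 protein-coding genes with a curated start inside, 3 had their whole transcript in the valley, the AP-1 factor gene Junb, Adm and Foxb2, whose transcripts are short. For 7 genes, these included, 50% or more was inside, among them Evx1 (88.1%), Irx5 (77.2%) and Zfp503 (71.3%), while 15 had less than 10% inside. Pcdh7 (0.644%), Esrrg (0.117%), which encodes an orphan nuclear receptor, and Zfp536 (0.0767%) had the least. The valley reached a median of 1914 bp upstream of the start and 2606 bp downstream of it, and the downstream part was the longer one at 24 of 33 genes. Msx1 and Tle3 were among the rest, with 4990 and 3839 bp upstream against 1773 and 1993 bp downstream.

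The cytosines inside were therefore not all promoter sites. Within 1 kb of a start lay 66.4% of them, in exons 12.6%, in introns 13.7% and between genes 7.31%, against 88.7, 5.08, 4.08 and 2.18% in the shorter runs. The promoter sites of the valleys averaged 0.83% ± 0.0209 (SD over 4 mice), the exon sites 2.52% ± 0.205, the intron sites 2.40% ± 0.178 and the intergenic sites 1.77% ± 0.233. Over all common autosomal sites the same classes averaged 3.93, 58.4, 65.8 and 65.5%, and the valley values are low because the rule asks for it.

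The rule did not use the reference sequence, but it needs read cytosines at most 1 kb apart and ends a run where they are missing, so a CpG-dense inside and a sparse flank are partly fixed by it. The values are a description. They had a median of 59.8 CpGs per kb of reference sequence (33.7 to 97.0), the shorter runs 81.4, and the 4 kb on each side of the valleys 17.5. Median GC content was 58.1% in the valleys, 64.7% in the shorter runs and 48.3% in the flanks, and the ratio of observed to expected CpG was 0.704, 0.790 and 0.302. Repeats, marked as soft-masked bases, took a median of 10.4% of a valley, 6.46% of a shorter run and 14.2% of a flank. Runs of 3 to 4 kb had 10.3% of repeats and 67.3 CpGs per kb. The densest valley was that of Arid2, with 97.0 CpGs per kb and 433 common cytosines, and the sparsest that of Adm, with 33.7 per kb and 57. Dlx1as, antisense to a homeobox gene of the forebrain, had the fewest common cytosines at 36. These features are values of the reference, with no replicate and no test.

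Only part of each valley was read. Of the 10702 CpGs of the reference in the valleys, 4880 (45.6%) had a common cytosine on at least 1 strand, and the share went from 21.8 to 63.4% among valleys. Every valley held at least 1 stretch of over 500 bp without a common cytosine, 93 such stretches in all, which took 37.6% of the summed span. The longest in a valley measured 523 to 989 bp. With neighbours allowed at most 500 bp apart, no run reached 4 kb. With 2 kb allowed, 164 did, up to 13570 bp long, and 81 of these (49.4%) held a developmental transcription factor start.

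Cytosines that the rule did not use bear on those stretches. In the valleys, 928 cytosines had 10 reads in 1 to 3 mice but not in all 4, so they had no part in the choice of regions. Of these, 751 lay in CpGs with neither strand common, and the rest on the opposite strand of a CpG that the rule used. All 928 averaged 2.73 and 1.67% in the Mixed mice (365 and 108 cytosines) and 2.12 and 2.06% in the B6 mice (819 and 805). Like unused cytosines elsewhere on the autosomes, outside valleys and shorter runs, averaged 53.1, 60.9, 57.5 and 57.5% in the same order. The shorter runs gave 1.13, 1.08, 1.09 and 1.10%. The valleys were thus above the shorter runs in 4 of 4 mice, by 1.04 percentage points ± 0.417 (SD, n = 4), with an exact two-sided sign-flip p of 0.13, which is the smallest that 4 mice allow and stays above the usual threshold (adjusted over 15 such comparisons, p = 0.156).

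Within the stretches of over 500 bp lay 149 of the unused cytosines, in 39 of the 93. Their means were 9.63 and 6.69% in the Mixed mice (48 and 14 cytosines) and 4.02 and 3.68% in the B6 mice (139 and 121), above the means over all unused valley cytosines in each mouse. Of all 928, 14 (1.51%) had a mean of 20% or more over the mice that covered them, and 9 of these lay in such stretches. They fell in 8 valleys. Evx1 held 5 of them, between 20 and 40%, of which 4 were covered in 1 mouse only. Runx1 held 3, including the highest, 75% at chr16:92696036 in 1 mouse with 12 reads. Had such a cytosine been covered in all 4 mice at that level, the rule would have ended the run there.

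Each mouse could also be read in valleys found without it. Runs built from 3 mice gave 38, 41, 38 and 39 valleys with each mouse left out in turn, and the mouse left out averaged 1.5, 1.31, 1.36 and 1.51% over all its cytosines there. Between 99.1 and 99.5% of those cytosines were below 20%. In shorter runs found in the same way the mouse left out averaged 0.783, 0.729, 0.732 and 0.745%. From the values of 1 mouse alone, on the same common cytosines, 25 and 29 valleys were found in the Mixed mice and 33 in each B6 mouse, fewer in the shallower libraries. The part of depth in this was not tested.

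Methylation was spread more widely among valleys than among mice. Over all valley cytosines the means were 1.40 and 1.34% in the Mixed mice and 1.25 and 1.32% in the B6 mice (1.33% ± 0.0595, SD, n = 4). Over the valleys, the mean of the 4 mice went from 0.115% at Trim8, which encodes a ubiquitin ligase of the TRIM family, to 4.74% at Tbx2. The run at Tbx2 measured 3935 bp without Mixed-2 and 3900 bp without B6-1, just short of a valley. Tbx2, a T-box repressor of heart and limb development, had 5.47, 4.36, 4.19 and 4.93% in the 4 mice. Trim8 had 0.175, 0.0820, 0.13 and 0.0800%. The ranges of these valleys did not overlap, with the lowest mouse at Tbx2 far above the highest at Trim8. Adm (4.23, 2.83, 3.78 and 4.33%) and Evx1 (3.34, 3.94, 3.81 and 3.20%) came next below Tbx2, and the mice overlapped between them. At the low end, Junb had 0.258, 0.0709, 0.223 and 0.161%, Arid2 0.186, 0.202, 0.183 and 0.213%, and Bahcc1 0.296, 0.181, 0.230 and 0.153%. Junb overlapped each of these low valleys, while Trim8 lay below Arid2 in every mouse.

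**Figure D3:**
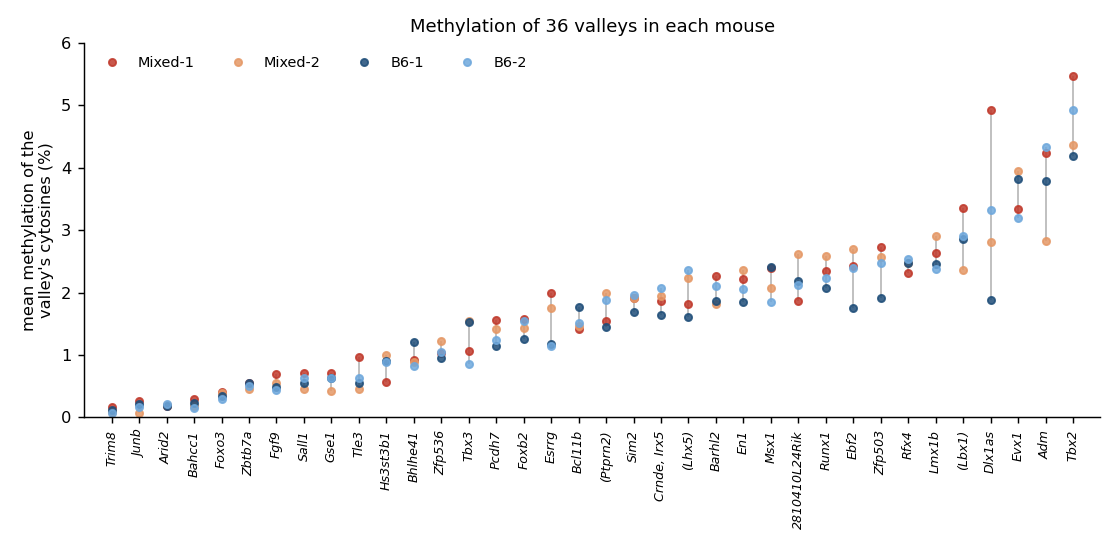
Mean methylation (percent) of the cytosines of 36 of the 38 valleys in each mouse, with the valleys ordered by their mean and a grey line from the lowest to the highest mouse. The means run from 0.115% at Trim8 to 4.74% at Tbx2. Gene names in brackets overlap a valley without starting in it.

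The widest valleys were not the most methylated. Msx1 had 2.40, 2.08, 2.41 and 1.85% in the 4 mice, and Fgf9 0.702, 0.550, 0.481 and 0.445%. Tle3 had 0.969, 0.451, 0.549 and 0.639%, Sall1 0.717, 0.461, 0.558 and 0.638%, and Zbtb7a 0.553, 0.463, 0.555 and 0.512%. Msx1 was above the other 4 in every mouse, and those 4 overlapped. Valley cytosines at developmental transcription factor genes averaged 1.89, 1.89, 1.75 and 1.83%, and those of the other valleys 1.01, 0.906, 0.863 and 0.919%. Since the rule used these values they carry no test. In the unused cytosines the same 2 sets of valleys differed by 0.0812 points ± 1.13 (SD, n = 4), higher at the developmental genes in 3 of 4 mice (exact sign-flip p = 1.00), so its sign was not the same in every mouse.

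Single cytosines were mostly at or near 0. Of the 6346, 47.5% had no methylated read in any mouse and 7.5% had a mean of 5% or more, against 3.21% of the cytosines of shorter runs. A mean from 10 to 20% was found at 150 cytosines and from 15 to 20% at 32. In a single mouse 17 (B6-1) to 35 (Mixed-1) cytosines reached 20%, with the highest value of any at 35%. The median coverage of a valley cytosine was 49, 50, 71 and 66 reads in the 4 mice, so 1 methylated read is worth more in the Mixed mice.

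Both strain means were low in the valleys, which the rule partly fixed, since it used these values. The Mixed mice averaged 1.37% ± 0.0423 (SD, n = 2) and the B6 mice 1.28% ± 0.0467, a difference of 0.0815 points, with an exact two-sided permutation p of 0.333, the smallest that 2 against 2 mice can give. With the reads of all valley cytosines pooled in each mouse, the difference turned to -0.0840 points (exact p = 0.333). The rule kept only cytosines with a low mean over all mice, which limited any strain difference beforehand. Neither test can therefore decide whether the strains differ in the valleys. By valley, the Mixed mean was above the B6 mean in 25 and below it in 13, with differences from -0.527 to 1.27 points. Both Mixed mice lay above both B6 mice in 9 valleys (23.7%), beside 19.8% of all 3639 runs of 1 kb or more, and below both in 1 (2.63%), beside 16.5%. The largest difference was at Dlx1as, with 4.92 and 2.81% in the Mixed mice and 1.88 and 3.32% in the B6 mice, where the strains overlapped.

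No valley cytosine was called strain-variable. A logistic model of the methylated and unmethylated reads of each mouse, with moderated overdispersion from limma and Benjamini-Hochberg adjustment over all 1276684 common cytosines, called 59 of them (0.00462%) at an adjusted p under 0.01 and a difference of 25 points, and 0 of the 6346 in valleys. There 66 had an unadjusted p under 0.05 (1.04%, beside 1.95% of all), none differed by 25 points and 33 differed by 10 or more. Fisher's exact test on pooled reads called 1610 of all cytosines and 0 in valleys. The largest difference was at Tbx2 (chr11:85830134), with 14.3 and 30.8% in the Mixed mice and 2.70 and 0% in the B6 mice on 14, 13, 37 and 42 reads, at an unadjusted p of 0.0171 and an adjusted p of 1.00 in that limma-moderated model. Since valley cytosines were chosen for a mean below 20%, a large difference between the strains was limited there from the start.

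The valleys ended in one of 2 ways. Of 76 ends, 29 (38.2%) were methylated ends, where the next common cytosine lay within 1 kb at 20% or more, and 47 were gap ends, where it lay farther off. Methylated ends made up 18.3% of the 7202 ends of shorter runs. Of the valleys, 8 had 2 methylated ends, 13 had 1 and 17 had none. At 23 of the 47 gap ends (48.9%) the next cytosine was again below 20%, beside 24.3% of the gap ends of shorter runs, and 7 valleys, namely Msx1, Evx1, Ebf2, Barhl2, En1, Foxb2 and Lhx5, ended so on both sides. For these the true end was not read. At the other 24 the next cytosine was at 20% or more, for example 90.2% on the left of Fgf9 and 98.7% on the left of Foxo3.

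The gaps were poor in CCGG, the only cutting site counted. The next cytosine lay a median of 3318 bp away (up to 81214 bp, right of Arid2), and the sequence between held a median of 14.1 CpGs and 0.926 CCGG per kb, against 59.8 and 7.31 in the valleys, and 2 of 47 held no CCGG. The sequence between had a median length of 1793 bp where a low cytosine followed and 5880 bp where a methylated one did.

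At most methylated ends the next cytosine was only just past the bound. The first cytosine past such an end averaged 32.2, 27.8, 27.4 and 26.4% in the 4 mice (28.5% ± 2.56, SD, n = 4), at a median distance of 31 bp. At least 20% was set by the rule, and 22 of 29 (75.9%) lay under 30%, against 49.8% at shorter runs. Only Sall1 on its right (56.7%) and Bahcc1 on its right (61.2%) reached 50%. The cytosine after that one was below 20% again at 14 of 29 ends (48.3%), beside 39.2% at shorter runs. With 1 such lone cytosine allowed inside a run, 47 valleys were found, the longest of 7808 bp, and each of the 38 overlapped one of them. On the left of Tbx2, Zfp503 and Lmx1b the inside and outside cytosines lay 1 bp apart, on opposite strands of the same CpG. With strands merged these runs measured 4287, 5549 and 4399 bp, against 4286, 4900 and 4363 bp. The run at Tbx2 thus hardly changed, and the others were longer.

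Of the 5 steepest ends, 4 are printed to show how close the levels change. They were picked for the largest rise between the last cytosine inside and the first outside at 100 bp or less, with 60 bases on each side, on the plus strand of GRCm38.p6, and the capitals mark the CpGs of those cytosines. The end right of Adm (chr7:110630007-110630177) lies in an exon of the noncoding Gm28863, the end left of Rfx4 (chr10:84754700-84754822), a factor of brain development, lies between genes, the end right of Tbx2 (chr11:85833840-85833969) lies in an intron of Tbx2, and the end left of Dlx1as (chr2:71537474-71537625) lies in an exon of that noncoding gene.
Adm right end: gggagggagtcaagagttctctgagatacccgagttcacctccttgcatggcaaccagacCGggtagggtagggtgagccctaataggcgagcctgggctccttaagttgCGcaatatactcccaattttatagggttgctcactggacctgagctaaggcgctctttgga
Rfx4 left end: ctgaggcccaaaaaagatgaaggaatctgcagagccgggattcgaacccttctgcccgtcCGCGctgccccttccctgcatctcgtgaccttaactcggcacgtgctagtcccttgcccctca
Tbx2 right end: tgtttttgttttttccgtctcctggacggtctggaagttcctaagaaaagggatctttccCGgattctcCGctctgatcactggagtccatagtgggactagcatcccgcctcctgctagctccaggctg
Dlx1as left end: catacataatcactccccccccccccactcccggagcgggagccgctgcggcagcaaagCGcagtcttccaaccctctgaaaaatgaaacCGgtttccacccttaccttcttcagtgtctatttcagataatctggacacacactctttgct
At Adm the capital CpG on the left is inside, with 11.1, 0, 0 and 0% in the 4 mice, and 50 bp on the values were 45, 35, 30.6 and 26.9%. At Rfx4 the outside cytosine lies 2 bp left of the inside one, with 33.3, 35.3, 29.3 and 28.6% against 4.54, 6.25, 0 and 6.25%. At Tbx2, over 9 bp, the values went from 3.8, 1.39, 5.97 and 1.80% to 27.8, 26.4, 26.1 and 29.2%. In these 3 windows every mouse was higher at the outside cytosine. Past it the mean was back at 10.6% at both Rfx4 (6 bp from the inside cytosine) and Tbx2 (47 bp). At Dlx1as the inside value was 0, 0, 0 and 2.67% and the outside value 30.9, 17.0, 18.0 and 32.4%. So 2 mice were themselves below 20% outside, though each mouse was higher there than inside. The next cytosine did not fall back at Adm (72.3%, 1559 bp from the inside one). At Dlx1as the next cytosine, 32 bp from the inside one, was at 60.5%, against a mean of 24.6% at the outside one. Both lie on opposite strands of the same CpG, so they are not separate sites, and the strands differed. The remaining steep end, right of the valley over Lbx1, went from 0, 0, 2.22 and 2.74% to 42.3, 21.7, 35.6 and 31.5% over 6 bp. Past it the next cytosine was back at 8.88%.

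Beyond the first cytosine, which is left out here, methylation stayed low around the valleys. At 100 to 500 bp outside the cytosines averaged 13.1, 12.9, 11.8 and 12% in the 4 mice (127 cytosines at 13 ends), and around shorter runs 21.5, 20.5, 19.9 and 20.4%. At 500 bp to 1 kb the valleys had 15.8, 14.4, 13.6 and 16.1% (111 cytosines at 12 ends) and the shorter runs 29.3, 28.8, 27.8 and 28.3%. Within 100 bp the valleys had 15.4, 12.2, 10.8 and 10.8% and the shorter runs 15.8, 15.1, 14.3 and 14.8%, a difference of -2.69 points ± 1.56 (SD, n = 4). The difference was -8.14 points ± 0.346 at 100 to 500 bp and -13.5 ± 0.999 at 500 bp to 1 kb. At 1 to 2 kb, where gap ends also count, it was -9.45 ± 0.196, with 9.11% ± 0.435 at the valleys, and at 2 to 5 kb -4.27 ± 0.304, with 14.9% ± 0.413. In each of these 5 classes the valleys were lower in 4 of 4 mice, with the smallest exact sign-flip p the design allows (p = 0.13, adjusted p = 0.156 over 15 comparisons). At 5 to 10 kb the difference was 0.0220 ± 0.696 points (exact p = 1.00) and both were near 24%. Few ends carry the nearer classes, and the 4 mice share them, so the spread over mice does not cover the spread over regions.

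**Figure D4:**
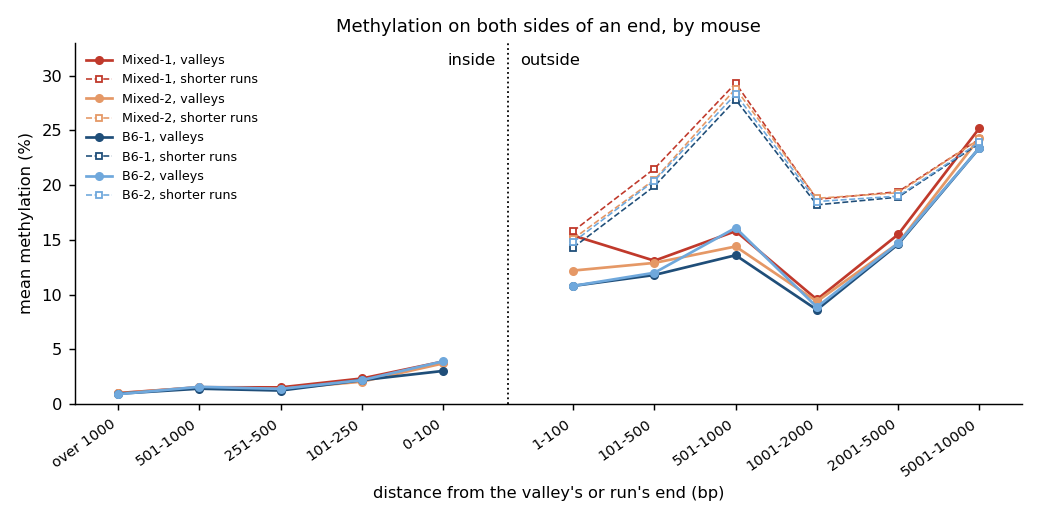
Mean methylation (percent) by distance from an end, inside the valleys (left of the dotted line) and outside the valleys and shorter runs (right), for each mouse. Filled circles are valleys and open squares shorter runs, over all ends, without the first cytosine past a methylated end. Inside, the means go from 0.972% over 1 kb from both ends to 3.65% within 100 bp. Outside, valleys lie below shorter runs from 100 bp to 5 kb, and both are near 24% at 5 to 10 kb.

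Inside the valleys the level was higher near the ends. The cytosines the rule used averaged 0.972% ± 0.0443 (SD, n = 4) at over 1 kb from both ends, 1.52% at 500 bp to 1 kb, 1.40% at 250 to 500 bp, 2.21% at 100 to 250 bp and 3.65% ± 0.415 within 100 bp. This is a description, since those values chose the ends. The unused cytosines within 250 bp of an end exceeded those over 1 kb from both by 0.0115, 0.0155, 1.22 and 1.62 points in the 4 mice (exact p = 0.13, adjusted p = 0.156), so 2 mice showed next to no difference. Within 100 bp alone the 25 unused cytosines averaged 0, 0, 2.18 and 2.24% (mean 1.10%). At over 1 kb they averaged 1.78, 0.946, 1.88 and 1.64% (mean 1.56%), so both Mixed mice were lower within 100 bp and both B6 mice higher. The highest mean was 4.87% at 250 to 500 bp, with 3.09, 10.5, 2.15 and 3.72%, so it rested largely on Mixed-2. In no mouse was the class within 100 bp the highest, as it was for the used cytosines.

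No comparison with housekeeping valleys was possible, as no valley held such a start. Instead, chosen after the data were seen, valleys with a developmental transcription factor start were set against the other valleys. Their first cytosines past a methylated end had 33.9, 25.7, 26.5 and 27.0% at 14 ends and 30.6, 29.8, 28.3 and 25.9% at 15 ends. The difference was -0.375 points ± 3.22 (SD, n = 4), with 2 mice on each side (exact sign-flip p = 0.875). The rule ended runs on these same values, and both sets had to reach its bound, so their closeness was partly fixed. The test can therefore not decide whether the sets differ at this cytosine. Farther out the sign of the difference between developmental and other valleys changed with distance. It was 2.79 points ± 1.71 at 100 to 500 bp, 2.19 ± 1.21 at 500 bp to 1 kb and 4.21 ± 0.452 at 1 to 2 kb, above 0 in 4 of 4 mice each time. At 2 to 5 kb it was -0.720 ± 0.455 and at 5 to 10 kb -1.78 ± 0.625, below 0 in 4 of 4 mice (exact p = 0.13 and adjusted p = 0.156 for each of the 5). Within 100 bp it was -1.78 ± 2.32, above 0 in 1 mouse (exact p = 0.250, adjusted p = 0.288). The classes from 100 bp to 2 kb rest on 6 against 7, 6 against 6 and 15 against 16 ends. All mice share these ends, so the spread over mice does not cover the spread over regions.

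Msx1 and Tbx2 show the 2 kinds of end. Around the Msx1 valley all 27 common cytosines read within 8 kb of it, 5 upstream and 22 downstream of the gene's direction, were below 20%, with medians of 10.9 and 1.69%, across gaps of 1274 and 4927 bp. Around the Tbx2 valley 12 of 22 upstream and 105 of 123 downstream cytosines were below 20%, with medians of 14.1 and 12.2%, and 2 cytosines at the far upstream side were at 92.7% and 99.5%. The Msx1 valley is thus bounded by missing cytosines, and that of Tbx2 by cytosines at 32% on its left and 27.4% on its right. On the left of Tbx2 that cytosine and the last one inside (14.6%) lie 1 bp apart, on opposite strands of the same CpG. With strands merged this CpG fell inside the run, which then measured 4287 bp, against 4286 bp before.

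**Figure D5:**
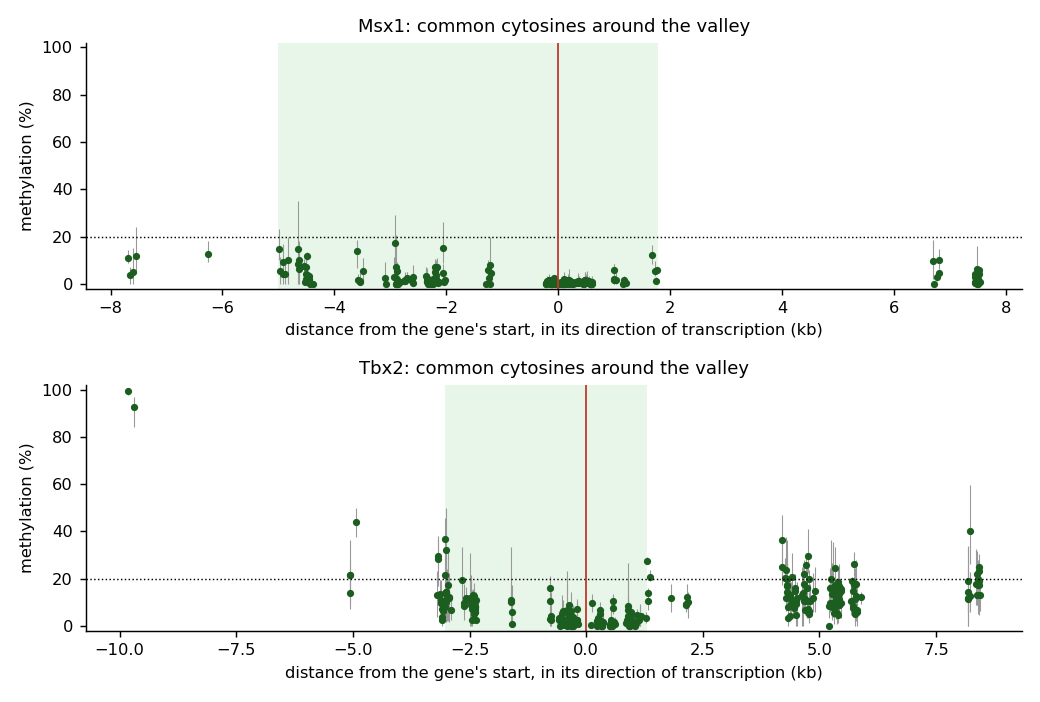
Methylation of each common cytosine (percent, mean of 4 mice as points, lowest to highest mouse as grey lines) by distance in kb from the start of Msx1 (top) and Tbx2 (bottom), in the direction of transcription. Green marks the valley, the red line the start and the dotted line the 20% bound. Around Msx1 all 27 cytosines outside are below 20%, and around Tbx2 some on both sides exceed it.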

How the data were processed

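DNA methylation was measured by ERRBS in total liver of 4 mice. The authors aligned 50-cycle single-end reads to mm10 and deposited, for each CpG cytosine and strand with 10 or more reads, the coverage as a read count and the percent of methylated and unmethylated reads. The methods name BSMAP and the submitters' processing notes name Bismark and SAMtools, without roles. Reads behind a percent were recovered from coverage, and depth sets the precision (1 read of 10 is 10 points).

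Runs were built in Python 3.11.15 (pandas 2.3.3, numpy 2.4.6, scipy 1.17.1) and annotated from RefSeq on GRCm38.p6, the same assembly as mm10, with pysam 0.24.0. A logistic model per cytosine in R 4.3.3 with limma 3.58.1 used all 1276684 common cytosines. Its prior overdispersion (1.81, 14.6 degrees of freedom) was estimated only from cytosines with at least 5 methylated and 5 unmethylated reads, a departure from the planned fit made after tests on simulated data. Values per mouse were compared by exact permutation tests. Nothing says more of the replicates than that they are separate mice.

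The members and gene lists were chosen with earlier results of these data known. Genes were named if they started in the 20 widest valleys, in the 3 widest valleys of a list or with the most starts, lay at the 4 kb threshold or at the 5 steepest ends. Other genes (En1, Junb, Esrrg, Lhx5, Trim8, Gse1 and the remaining list members) were named after their values were seen. Single results for 2 valleys are not reported here. The planned comparison with housekeeping valleys could not be made, as there are none. Alternatives changed the bound, gap, span, read minimum, mice and strand handling.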

Additional observations from a re-analysis of the deposited data

Results flagged for a closer look

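Of 51 quantities with a value in each of the 4 mice, 1 had a mouse far from the others by Dixon's criterion. At 2 to 5 kb outside the valleys Mixed-1 had 15.5% methylation, against 14.7, 14.6 and 14.7% in Mixed-2, B6-1 and B6-2, with a gap to the nearest of 0.889 of the whole range. Chance flags about 1 in 20 such groups.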

How the results depend on the processing

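The number of valleys followed the settings of the rule. From 38 it became 14 with a bound of 10%, 0 with a gap of 500 bp (so no span or share), 164 with a gap of 2 kb, 19 with a minimum of 20 reads, 19 with every mouse below 20%, 162 at a span of 3 kb and 9 at 5 kb, and 25 from Mixed-1 alone, an alternative chosen after seeing the data. The median span became 4627 bp with a bound of 30%, 4973 bp with a gap of 2 kb, 4364 bp with 20 reads, 4362 bp with every mouse below 20% and 4364 bp from B6-1 alone (added). The share with a developmental factor start became 28.6% with a bound of 10% and 31.6% with every mouse below 20%. Leaving out each mouse gave 38 to 41 valleys, medians of 4364 to 4546 bp and shares of 47.4 to 51.3%, but not the same regions: 34 of the 38 were overlapped without Mixed-2, where Lhx5 (2953 bp), Sim2 (2980 bp), Hs3st3b1 (3779 bp) and Tbx2 (3935 bp) fell short, and 37 without each other mouse. The strain difference turned to -0.0840 points with reads pooled, was 0.0486 to 0.115 without each mouse, and with a replicate block stayed 0.0815 (exact p = 0.500). The block called 0 of all 1276684 common cytosines, against 59 without it, so its 0 in valleys carries no information. Deviations of same-numbered mice correlated at -0.000207, so the numbers were not taken to pair mice. The first cytosine past an end averaged 22% with a bound of 10%, 36.1% over every end (added) and 27.2 to 29.1% without each mouse. Its difference between developmental and other valleys turned to 0.861 without Mixed replicate 2 and 0.0898 without B6 replicate 1, with a range of -1.59 to 0.861. Where a value changed, the cause was not tested.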

Other observations

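On the sex chromosomes, which the rule leaves out, 23011 common cytosines gave 74 runs of 1 kb or more and 1 of 4 kb or more. It spanned 4071 bp at chrX:133686130-133690201 with 128 cytosines and held the starts of Pcdh19, a protocadherin gene, and Gm26851. Its methylation was 1.12 and 1.18% in the Mixed mice and 1.36 and 1.5% in the B6 mice, all male, within the range of the autosomal valleys.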
